A study of Mus musculus with 12 samples.

Results

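The 32 genes described here encode the transporters and enzymes that take glucose to pyruvate and lactate, and the proteins that admit pyruvate to mitochondria. They were taken by symbol, by a rule that reads no measured value but was drawn up with earlier results of these data known, and fall into 7 roles: glucose transporters (Slc2a1, Slc2a3), hexokinases (Hk1, Hk2, Hk3), hexose phosphate steps (Gpi1, Pfkl, Pfkm, Pfkp, Pfkfb3, Pfkfb4), aldolases and triose phosphate isomerase (Aldoa, Aldoc, Tpi1), lower glycolysis (Gapdh, Pgk1, Pgam1, Eno1, Eno2, Eno3, Pkm, Bpgm), lactate genes (Ldha, Ldhb, Slc16a1, Slc16a3) and mitochondrial pyruvate handling (Pdk1, Pdk2, Pdha1, Pdhb, Mpc1, Mpc2). All 32 were present in the table of 45706 genes, and all 32 were among the 15922 genes with enough reads to test. Polyadenylated RNA came from mouse T cells in 4 groups of 3 libraries: conventional cells of WT genotype, conventional cells lacking Coro1a (KO), regulatory cells of WT genotype and regulatory KO cells. Coro1a encodes coronin 1 (Coronin1A), an actin-binding protein of leukocytes. The strain, age and sex of the mice, the organ, the sorting of the cells and any treatment are not given in the sources used here, nor is it said whether the KO was in all cells. The labels do not say whether replicates came from separate mice, so every p-value below measures only the spread between these libraries.

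Glycolysis splits glucose in the cytosol and yields pyruvate, which is reduced to lactate and exported or imported into mitochondria and oxidised by pyruvate dehydrogenase. Hexokinase, phosphofructokinase and pyruvate kinase catalyse its controlled steps, and most steps have isozymes with tissue-specific expression. Stimulated T cells raise glucose uptake and glycolytic gene expression under mTOR, Myc and hypoxia-inducible factor, whereas resting T cells and regulatory T cells are known for a larger share of mitochondrial oxidation.

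The promoters of 4 genes are shown because Hk2, Hk3 and Slc16a3 had the largest differences between WT and KO conventional cells and Ldha was the member of highest level per exon length in WT conventional cells. Each run is the 250 bases before a RefSeq transcript start (GRCm38.p6), written 5′ to 3′ on the gene's strand. Capitals mark ACGTG on either strand, the core bound by hypoxia-inducible factors, and CACGTG, the E-box bound by Myc, which contains ACGTG on both strands. They lie at chr6:82774455-82774704 (minus strand, Hk2), chr13:55021386-55021635 (minus, Hk3), chr11:120948817-120949066 (plus, Slc16a3) and chr7:46845554-46845803 (plus, the first of 2 windows of Ldha).
Hk2: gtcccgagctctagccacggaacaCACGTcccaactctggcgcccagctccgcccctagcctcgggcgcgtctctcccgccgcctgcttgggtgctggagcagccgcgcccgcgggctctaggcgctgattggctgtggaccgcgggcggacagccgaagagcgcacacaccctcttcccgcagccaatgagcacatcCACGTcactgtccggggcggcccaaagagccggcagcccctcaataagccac
Hk3: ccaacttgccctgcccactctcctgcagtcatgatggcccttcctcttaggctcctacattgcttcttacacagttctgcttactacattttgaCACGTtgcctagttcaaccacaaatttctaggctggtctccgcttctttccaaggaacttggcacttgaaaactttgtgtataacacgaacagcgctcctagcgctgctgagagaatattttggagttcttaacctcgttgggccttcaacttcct
Slc16a3: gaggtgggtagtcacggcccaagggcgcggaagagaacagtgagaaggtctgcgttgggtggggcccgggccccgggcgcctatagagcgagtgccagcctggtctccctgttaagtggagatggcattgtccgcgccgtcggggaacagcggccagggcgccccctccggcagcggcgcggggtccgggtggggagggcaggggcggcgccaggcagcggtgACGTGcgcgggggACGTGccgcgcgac
Ldha: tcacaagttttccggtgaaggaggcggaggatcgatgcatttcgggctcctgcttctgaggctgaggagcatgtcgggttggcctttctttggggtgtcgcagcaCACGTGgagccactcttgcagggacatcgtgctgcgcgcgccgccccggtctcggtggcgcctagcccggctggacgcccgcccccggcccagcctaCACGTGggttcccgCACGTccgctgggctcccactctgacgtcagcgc
The motif occurs 2 times in the Hk2 window, 1 time in that of Hk3, 2 times in that of Slc16a3 and 5 times in the Ldha window shown, where each of its E-boxes counts on both strands. The second window of Ldha, not shown, held it 0 times. Of the 31 members with a promoter entry, 14 held ACGTG in at least one window, against 18.5% of 27025 genes. Counted by window, 17 of 46 member windows (37.0%) held it, against 16.6% of 32851 windows of that length. Promoters without it included those of Bpgm, Tpi1, Eno3 and Pfkfb4. These are matches of letters in one window and no record of binding.

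Libraries held 19686870 to 33404302 reads in genes. Coro1a stood at 2124 to 2712 CPM in WT libraries and at 20.9 to 47.3 CPM in KO libraries, which checks the genotype labels. CPM here are counts of a gene relative to the TMM-scaled total of tested genes, and the TMM factors assume that most genes are alike between libraries. Foxp3, which defines regulatory T cells, ranged from 443 to 642 CPM in regulatory libraries and reached at most 66.2 CPM in conventional ones. The conventional and regulatory libraries differed in transcripts of other cells, listed here as summed CPM over marker lists, in all of which 0 markers were at 0 in every library of a group. Neutrophil markers (10 genes) summed to 5.13 to 12.5 CPM in WT conventional, 359 to 713 in KO conventional, 63.9 to 121 in WT regulatory and 128 to 310.4 in KO regulatory libraries. Macrophage and monocyte markers (11 genes) summed to 319 to 528, 1783 to 3851, 1068 to 1414 and 1126 to 2568 CPM in the same order. Erythroid markers (9 genes) summed to 7.21 to 27.2, 32.8 to 84.4, 5197 to 9571 and 5881 to 7657 CPM, and B cell markers (8 genes) to 3.11 to 4.24, 25.4 to 45.8, 3495 to 4829 and 3867 to 4721 CPM. Those of NK cells (8 genes) came to 64.3 to 79.0, 302 to 579, 48.0 to 77.1 and 89.5 to 95.7 CPM. Proliferation genes (12), a list not tied to another cell type, summed to 328 to 368, 448 to 453, 625 to 792 and 748 to 836 CPM. By the edgeR test described below, each of the 12 differed between conventional genotypes, 10 rising and 2 falling with the KO (median log2 value 1.16). Between regulatory genotypes 0 of them passed, at a median of 0.12. The sum of Cd3d, Cd3e, Cd3g, Cd5, Cd6 and Lat, the 6 T cell genes used below for scaling, was 3185 ± 150.0, 2122 ± 184, 2079 ± 346 and 1467 ± 332 CPM (SD, n = 3). Scaling to these genes sets their sum alike in all libraries and shifts all genes of a library by the same factor. That their RNA per T cell is alike in all groups is assumed and was not tested. With TMM scaling their log2 values ran from -0.70 to -0.50 in KO against WT conventional cells. Between the cell types in WT they ran from -1.22 to -0.35. Replicates 1 and 2 of both conventional groups held Xist reads without Y-linked ones and replicate 3 the reverse, 4 regulatory libraries held Y-linked reads alone, and WT regulatory replicate 3 and KO regulatory replicate 1 held both. The sex of the source thus runs in part with the cell type. With a term for Xist in the model, added after seeing the data, 19 members were higher and 6 lower in WT regulatory than in WT conventional cells. Of 15922 genes, 6131 were then higher and 5271 lower. In KO regulatory against KO conventional cells, 21 members were higher and 4 lower, beside 5644 and 4935 of all genes. In such bulk samples, a change in the number of cells of a type and a change in RNA per cell cannot be told apart. The part of these other cells, or of proliferation, in the results below was not tested.

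Per kilobase of annotated exon, the most abundant members in WT conventional cells were Ldha at 155 CPM per kb, Aldoa at 128 and Pkm at 111. Gpi1, Pdk1, Eno1 and Pdha1 followed at 59.0, 58.3, 56.1 and 55.6 CPM per kb. The lowest were Hk2 at 0.289, Eno2 at 0.315, Slc16a3 at 0.520 and Aldoc at 0.828 CPM per kb. Levels of genes with near-identical copies are uncertain, because reads that matched several places were tallied apart and assigned to no gene. In GENCODE M21 transcripts, 13 of the 32 members shared more than 10% of their 50-base words with other genes, led by Gapdh (82.5%), Eno1 (72.2%) and Pgk1 (68.0%), and 13 shared none, among them Hk2, Hk3, Slc16a3, Eno3, Bpgm and Pdk1. Multimapping reads made up 9.25 to 11.1% in conventional and 15.8 to 19.5% in regulatory libraries. Summed over the 32 members, the level was 3969.9 ± 88.2 CPM in WT conventional, 3481 ± 8.20 in KO conventional, 4194 ± 268 in WT regulatory and 4390.3 ± 217 in KO regulatory libraries (SD, n = 3). The 3 KO conventional sums lay below the 3 WT ones, but as a share of all reads in genes, before TMM scaling, the members made up 0.380 ± 0.00704% in WT and 0.378 ± 0.00453% in KO conventional libraries.

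Loss of Coro1a in conventional T cells was accompanied by opposite differences within the pathway. Hk2, Hk3 and the lactate exporter gene Slc16a3 rose 4.70- to 7.12-fold. The transporter gene Slc2a3, Pfkfb4, Tpi1, Eno3 and Pdk2 rose by less. With TMM scaling, the abundant Ldha, Pkm, Eno1 and Aldoa fell by 0.41, 0.30, 0.34 and 0.21 on the log2 scale. Scaling to T cell genes, which shifts all genes of a library alike, put these falls above 0. By edgeR's quasi-likelihood test (Benjamini-Hochberg adjusted over all tested genes, threshold 0.05), 8 members rose and 11 fell, and 13 did not pass. Of all genes tested, 48.7% passed in this comparison (23.3% higher, 25.4% lower), and the share among the members was 59.4%. The median log2 fold change of the members was -0.15, beside -0.049 for all genes. The 3 libraries of each genotype did not overlap for 8 members higher and 17 lower in KO, where 63.6% of all genes did not overlap. Scaled to the 6 T cell genes instead, the median of all genes moved to 0.53 and that of the members to 0.44. With that scaling 14 members were higher and 0 lower, where 7006 of 15922 genes were higher and 60 lower. Each of the 11 members that had fallen turned to a log2 value between 0.073 and 0.38.

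In regulatory T cells, fewer members differed between the genotypes. Hk3, Pfkfb3, Eno3 and Slc16a3 rose, by 1.41- to 2.01-fold, and Pdk1, the kinase that inhibits pyruvate dehydrogenase, fell. That is 5 members, or 15.6%, where 7.83% of all genes passed (4.01% higher, 3.82% lower). The members' median was 0.071 and that of all genes 0.0038. Between genotypes, 9 members lay higher and 4 lower in KO without overlap, where 26.2% of all genes did not overlap. With T cell gene scaling, which moved the median of all genes here to 0.53, 18 members were higher and 0 lower. Over all genes, 5116 of 15922 were then higher and 41 lower, and Pdk1 turned to 0.056. Without the pair of libraries that held both Xist and Y-linked reads, 3 members were higher and 1 lower. Of 16082 genes then tested, 635 were higher and 558 lower.

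Regulatory T cells had higher levels of most members than conventional T cells. Bpgm, Hk2, Slc16a3, Eno2, Tpi1, Hk3, Eno3 and Aldoc were at least 2.17-fold higher in WT regulatory cells, and Pdk1 was lower, with a log2 value of -1.78. Of the 32 members, 19 were higher and 5 lower in WT, where 72.4% of all genes passed (39.1% higher, 33.3% lower), and 22 were higher and 4 lower in KO, where 67.8% passed (36.1% higher, 31.7% lower). The median over members was 0.35 in WT and 0.41 in KO, beside 0.069 and 0.032 for all genes. No overlap between the cell types was seen for 19 members higher and 6 lower in WT (75.3% of all genes) and for 22 higher and 4 lower in KO (72.7%). Of the members called lower, only Pdk1 was still called lower with T cell gene scaling, which moved the medians of all genes to 0.71 in WT and 0.62 in KO and those of the members to 0.97 and 0.98. Of 15922 genes, 966 in WT and 1074 in KO were lower with that scaling. The effect of the KO differed between the cell types for 8 members, or 25% of them, 4 higher (Pfkfb3, Eno3, Pkm, Ldha) and 4 lower (Hk2, Hk3, Pfkfb4, Slc16a3) in regulatory cells. That count was 2 with T cell gene scaling, where 30 of 15922 genes were higher and 921 lower. It was 13 with DESeq2, where 1773 genes were higher and 2279 lower, and 4 to 9 with 1 library left out. In the main fit, 21.3% of all genes passed that test of the difference (8.86% higher, 12.4% lower). The members' median there was 0.17, beside 0.016 for all genes. The comparisons of genotypes and of cell types share libraries, and their values for each member stand side by side below.

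**Figure D1:**
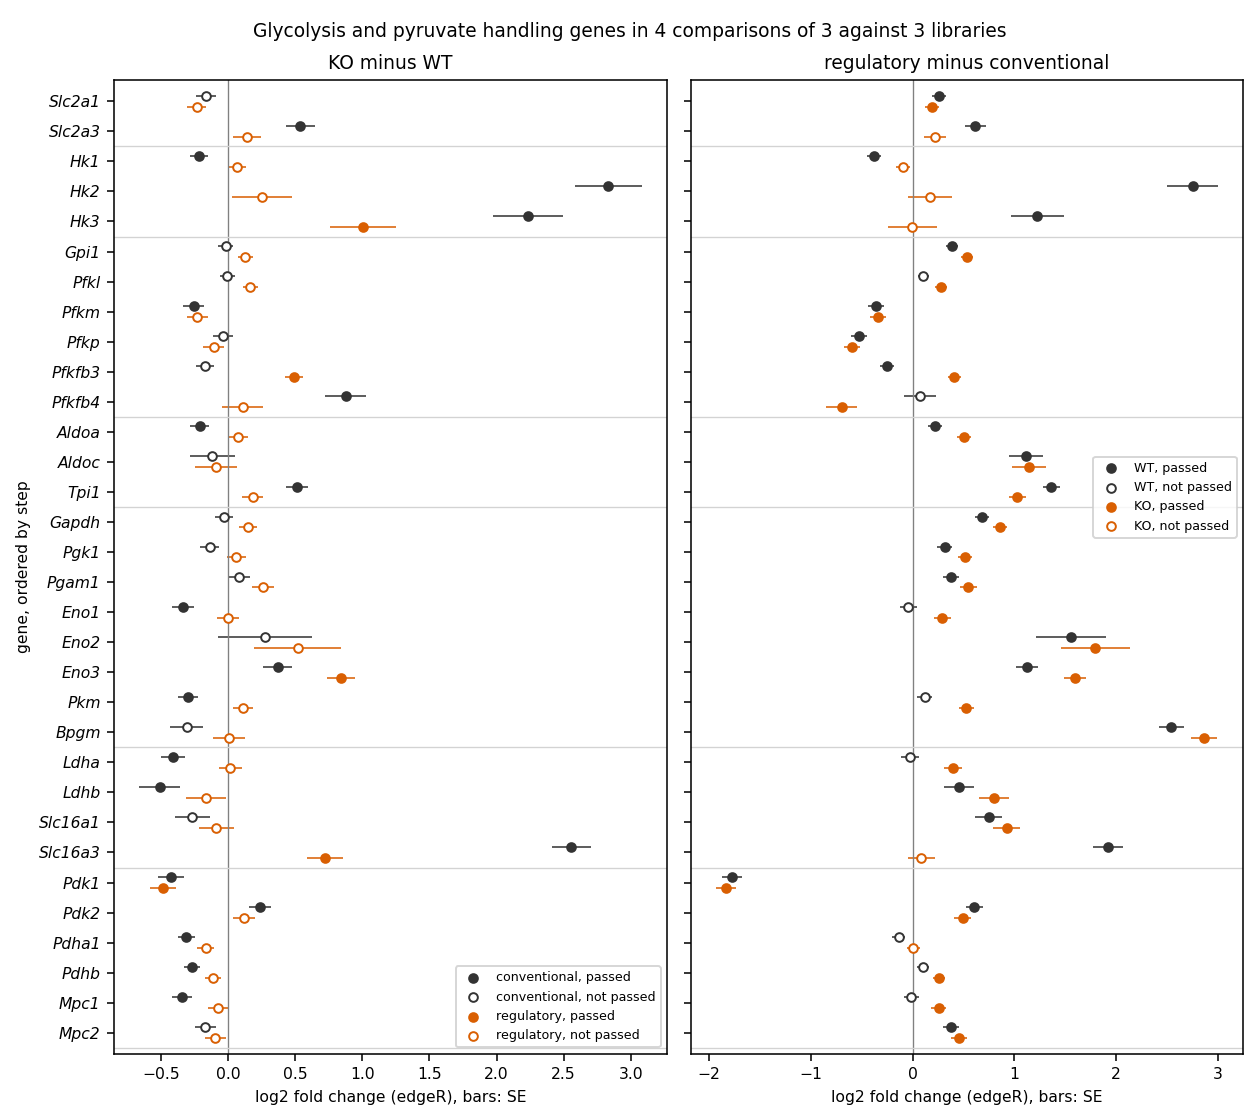
Log2 fold changes (edgeR, TMM scaling) of the 32 genes with SE, 3 against 3 libraries each; left, KO minus WT in conventional (dark) and regulatory (orange) cells; right, regulatory minus conventional cells in WT (dark) and KO (orange); filled points passed the adjusted threshold of 0.05. Hk2, Hk3 and Slc16a3 lie at 2.23 to 2.83 in conventional cells on the left, and Bpgm lies at 2.54 and 2.86 on the right.

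Glucose enters T cells through the transporters GLUT1 and GLUT3, encoded by Slc2a1 and Slc2a3. Slc2a3 rose in KO conventional cells to 95.1 ± 10.5 CPM from 65.5 ± 6.58 CPM in WT (SD, n = 3), or by 0.54 on the log2 scale (SE 0.11, adjusted p = 0.00167). In regulatory cells its levels were 100.5 ± 11.0 CPM (WT) and 111 ± 9.73 CPM (KO), and the difference of 0.14 did not pass (adjusted p = 0.420). WT regulatory cells were above WT conventional cells by 0.62 on the log2 scale. Slc2a1 ranged from 36.7 to 55.6 CPM over the 12 libraries. It passed only between the cell types, at 0.26 in WT and 0.19 in KO, and the latter did not pass when any 1 of 4 libraries was left out (replicates 2 and 3 of both KO groups), at log2 values down to 0.064.

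Hexokinase traps glucose in the cell as glucose 6-phosphate, and its types differ in affinity and in binding to mitochondria. Hk1, the abundant type, was at 199.8 ± 6.25 CPM in WT conventional, 172 ± 4.42 in KO conventional, 154 ± 11.3 in WT regulatory and 161 ± 14.3 CPM in KO regulatory cells (SD, n = 3). Hk2, the type that stimulated T cells raise, was measured, in replicates 1 to 3 as throughout, at 1.82, 1.83 and 1.54 CPM in the WT and 10.5, 8.87 and 17.6 CPM in the KO replicates of conventional cells. The regulatory WT replicates gave 10.8, 10.6 and 13.5 CPM and the KO replicates 15.9, 13.6 and 12.1 CPM. The 3 WT conventional libraries were thus apart from all 9 others, and KO conventional libraries overlapped both regulatory groups. The log2 fold change of Hk2 was 2.83 (SE 0.25, adjusted p = 1.04e-05) in conventional KO cells and 0.25 (adjusted p = 0.507) in regulatory KO cells, and these effects differed by -2.58 (SE 0.33, adjusted p = 0.000573). Regulatory cells exceeded conventional ones by 2.75 (adjusted p = 1.76e-06) in WT and by 0.17 (adjusted p = 0.506) in KO. The highest Hk2 value, in KO conventional replicate 3, came with the highest macrophage and NK sums of all 12 libraries, 3851 and 579 CPM. KO regulatory replicate 1 had the next Hk2 value and the next macrophage sum, 2568 CPM, but an NK sum of 89.9 CPM. KO conventional replicate 1, with sums of 2466 and 398 CPM, read less Hk2 than KO regulatory replicate 2, with sums of 1126 and 89.5 CPM. The part of these cells in the Hk2 level was not tested.

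Hk3, a hexokinase known mainly from myeloid cells, read 4.61, 6.68 and 4.93 CPM in the WT and 27.6, 18.9 and 29.9 CPM in the KO replicates of conventional cells. Among regulatory libraries, WT replicates stood at 13.1, 10.8 and 14.1 CPM and KO replicates at 35.8, 20.02 and 20.4 CPM. Groups of the same cell type did not overlap by genotype, and the KO groups of the 2 cell types overlapped. Hk3 rose by 2.23 in conventional KO cells (SE 0.26, adjusted p = 5.62e-05) and by 1.00 in regulatory KO cells (SE 0.25, adjusted p = 0.0329), with a difference of effects of -1.23 (adjusted p = 0.0294). Between cell types it differed by 1.23 (adjusted p = 0.00117) in WT and by -0.0026 (adjusted p = 0.993) in KO. The regulatory call was lost without KO regulatory replicate 1 (log2 0.67, adjusted p = 0.0922), WT regulatory replicate 1 (0.0830) or replicate 2 (0.117), and the difference of effects when any 1 of 8 libraries was left out, at adjusted p up to 0.0755. KO regulatory replicate 1, with the highest Hk3 value, had neutrophil and macrophage sums of 310 and 2568 CPM, the highest among regulatory libraries. Hk1 fell by 0.22 on the log2 scale in KO conventional cells (adjusted p = 0.0201; log2 value 0.37 with T cell gene scaling), a call lost without WT replicate 1 or 2 or KO replicate 1 or 3, at adjusted p up to 0.0677. Between cell types in WT it read -0.38 (adjusted p = 0.000375), and 0.25 with T cell gene scaling.

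**Figure D2:**
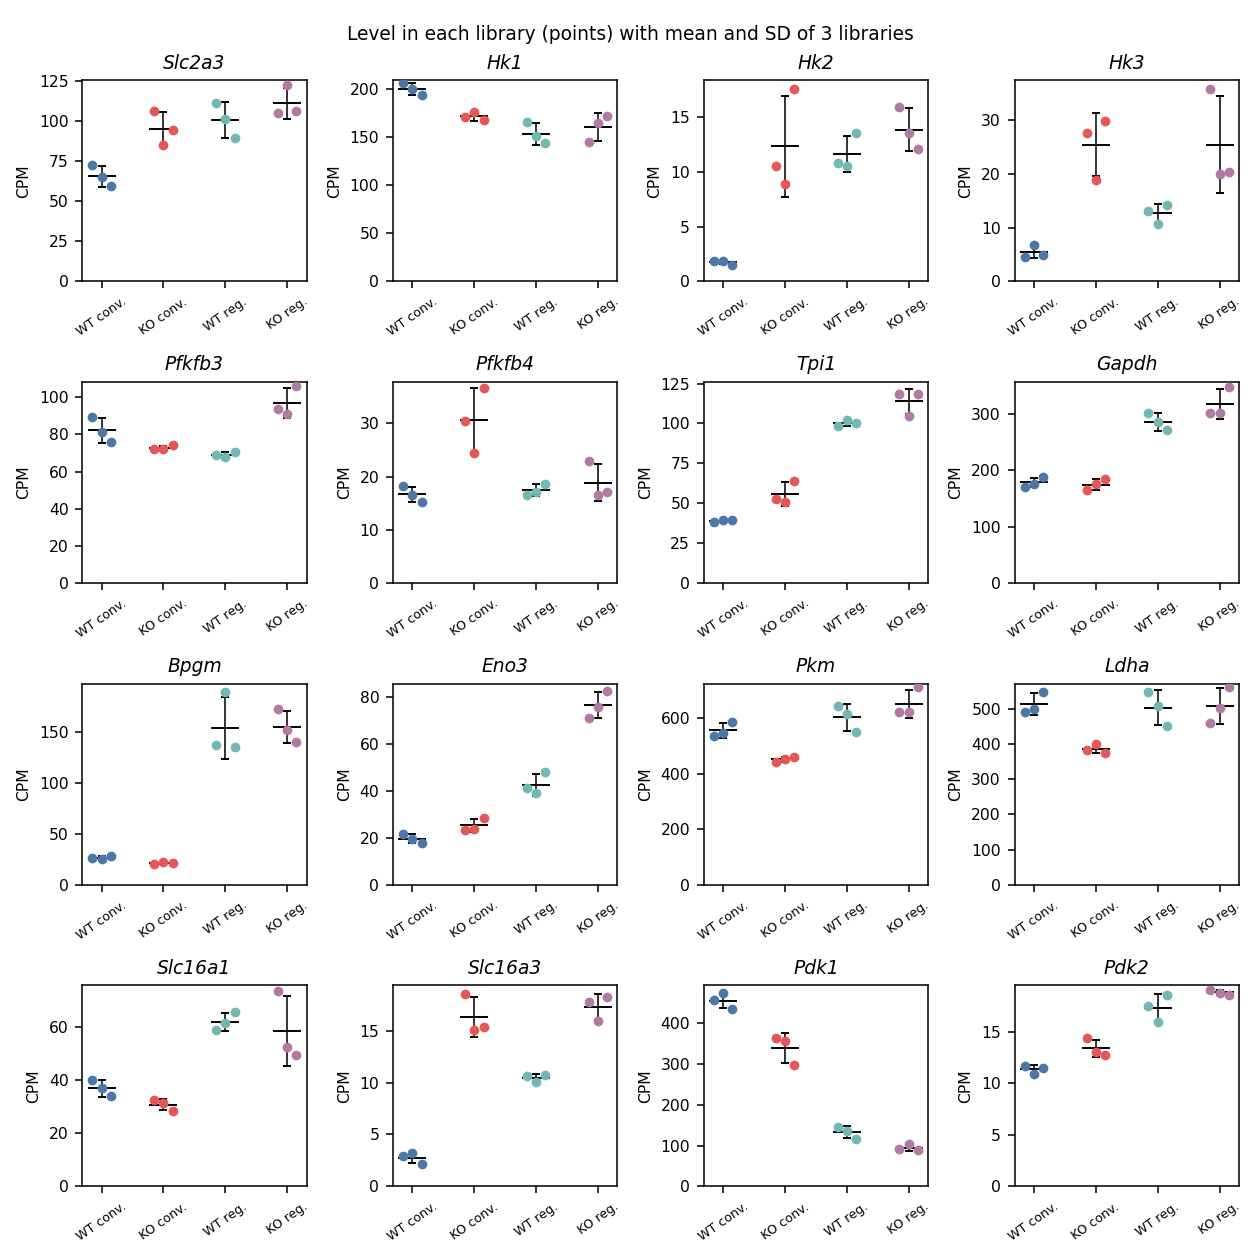
CPM (linear axes from 0) of 16 of the 32 genes in each of the 12 libraries (points), with bars for each group's mean and SD over 3. Hk2 reads 1.54 to 1.83 CPM in WT conventional libraries and 8.87 to 17.6 CPM in the other 9, and Pdk1 falls from 435 to 472 CPM in WT conventional to 89.0 to 145 CPM in regulatory libraries.

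Glucose 6-phosphate isomerase (Gpi1) and phosphofructokinase (Pfkl, Pfkm and Pfkp, the liver, muscle and platelet types) carry the hexose phosphates to fructose 1,6-bisphosphate. Gpi1, one of the 5 members of highest CPM, measured 364, 379.7 and 399 CPM in the WT and 376, 379 and 373 CPM in the KO replicates of conventional cells. Its regulatory values were 528, 487 and 477 CPM for WT and 542, 517 and 574 CPM for KO replicates. All 6 regulatory libraries lay above all 6 conventional ones, by 0.39 in WT (adjusted p = 0.000115) and 0.53 in KO (adjusted p = 1.14e-05), while the genotypes differed by -0.019 and 0.13, neither of which passed. The phosphofructokinase genes went in opposite directions between cell types: Pfkp was lower in regulatory cells, at -0.53 in WT and -0.60 in KO, Pfkm likewise, at -0.36 and -0.34, and Pfkl was higher in KO by 0.28 (0.11 in WT, not passed), although with T cell gene scaling Pfkm read 0.28 and 0.25 and Pfkp 0.10 and -0.036. Pfkm also fell by 0.25 in KO conventional cells (adjusted p = 0.0188; log2 value 0.33 with T cell gene scaling), lost without WT replicate 1 or 2 or KO replicate 2 or 3 at adjusted p up to 0.0823, while Pfkl and Pfkp did not pass there.

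The genes Pfkfb3 and Pfkfb4 encode bifunctional enzymes that set fructose 2,6-bisphosphate, the activator of phosphofructokinase, and they moved differently. Pfkfb3 was at 89.5, 81.1 and 75.8 CPM in the WT and 72.4, 72.4 and 74.0 CPM in the KO replicates of conventional cells. WT regulatory replicates showed 68.7, 67.6 and 70.7 CPM, and KO regulatory replicates 93.9, 90.9 and 106 CPM. The KO regulatory libraries were the highest of the 12, and the regulatory genotypes did not overlap. Pfkfb3 rose by 0.49 in regulatory KO cells (SE 0.069, adjusted p = 0.00349), beside -0.17 in conventional ones (adjusted p = 0.0580), and the effects differed by 0.66 (adjusted p = 0.00119). Its order between cell types turned with the genotype, with regulatory cells at -0.25 in WT and 0.41 in KO, and with T cell gene scaling both were positive (0.39 and 0.99).

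Pfkfb4 was counted at 18.2, 16.5 and 15.3 CPM in the WT and 30.5, 24.5 and 36.7 CPM in the KO replicates of conventional cells. The regulatory WT replicates gave 16.6, 17.2 and 18.7 CPM and the KO replicates 22.9, 16.6 and 17.1 CPM. KO conventional libraries were above all 9 others. The rise was 0.88 (SE 0.15, adjusted p = 0.000839) in conventional cells, the regulatory value was 0.11 (adjusted p = 0.701), and the difference of -0.77 passed at adjusted p = 0.0283. That difference did not pass when any 1 of 7 libraries was left out, at adjusted p up to 0.0742.

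Aldolase cleaves fructose 1,6-bisphosphate and triose phosphate isomerase interconverts the products. Aldoa was among the members of highest CPM and lies 87.4 kb from Coro1a on chromosome 7 (GRCm38, 7:126795234-126800751, with Coro1a at 7:126699773-126707787). Its levels were 353, 371 and 393 CPM in the WT and 314, 315 and 336 CPM in the KO replicates of conventional cells. Among regulatory libraries, WT replicates stood at 446, 448 and 405 CPM and KO replicates at 443, 429 and 497 CPM. The conventional genotypes did not overlap and the regulatory ones did. Aldoa fell by 0.21 in KO conventional cells (adjusted p = 0.0248; log2 value 0.38 with T cell gene scaling), a call lost without WT replicate 2 or 3 or KO replicate 1 or 2 at adjusted p up to 0.0968, and was higher in regulatory cells by 0.22 in WT and 0.50 in KO. The WT call between cell types was lost without WT conventional replicate 1 or WT regulatory replicate 2, at adjusted p up to 0.0638.

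Aldoc, the brain type of aldolase, was low throughout, with 2.99, 2.77 and 2.34 CPM in the WT and 2.63, 2.29 and 2.55 CPM in the KO replicates of conventional cells. Its regulatory values were 6.93, 5.01 and 5.70 CPM for WT and 5.13, 5.53 and 5.87 CPM for KO replicates. Regulatory libraries were all above conventional ones, by 1.12 (adjusted p = 8.27e-05) in WT and 1.14 (adjusted p = 7.90e-05) in KO, and the genotypes overlapped in both cell types. Tpi1 read 38.2, 39.3 and 39.4 CPM in the WT and 52.4, 50.7 and 64.2 CPM in the KO replicates of conventional cells. WT regulatory replicates showed 98.2, 102 and 100.4 CPM, and KO regulatory replicates 118, 105 and 119 CPM. The 4 groups stood in that order with no overlap between neighbours. Tpi1 was higher in regulatory cells by 1.36 (SE 0.083, adjusted p = 9.49e-08) in WT and 1.03 (SE 0.082, adjusted p = 9.81e-07) in KO, rose by 0.52 in KO conventional cells (adjusted p = 0.000472) and differed by 0.18 in KO regulatory cells, which did not pass.

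Lower glycolysis runs from glyceraldehyde 3-phosphate dehydrogenase (Gapdh) through phosphoglycerate kinase and mutase (Pgk1, Pgam1) and enolase to pyruvate kinase (Pkm). Between cell types Gapdh, Pgk1 and Pgam1 were all higher in regulatory cells: Gapdh by 0.68 in WT and 0.86 in KO, Pgk1 by 0.32 and 0.51 and Pgam1 by 0.38 and 0.55. Between genotypes none of the 3 passed in either cell type, with log2 values from -0.13 to 0.26. These 3 genes share 41.5 to 82.5% of their words with other genes. Pkm, the member of highest CPM, was measured at 534, 545 and 587 CPM in the WT and 442, 452 and 460.5 CPM in the KO replicates of conventional cells. The regulatory WT replicates gave 644, 617 and 550.2 CPM and the KO replicates 623, 620.3 and 711 CPM. The KO conventional libraries were the lowest of the 12. Pkm fell there by 0.30 (adjusted p = 0.00662; log2 value 0.29 with T cell gene scaling), read 0.11 in regulatory KO cells (adjusted p = 0.380), and the effects differed by 0.41 (adjusted p = 0.0187, or 0.0527 without WT conventional replicate 3). Regulatory KO cells exceeded conventional KO cells by 0.53 (adjusted p = 7.21e-05), and the WT difference of 0.12 did not pass.

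The enolase types went apart. Eno1, the common type, was at 272, 304 and 330.2 CPM in the WT and 246, 229 and 243 CPM in the KO replicates of conventional cells. Among regulatory libraries, WT replicates stood at 327, 283 and 271 CPM and KO replicates at 282, 287 and 311 CPM. KO conventional libraries were the lowest 3 of the 12, and the other groups overlapped. Eno1 fell by 0.34 in KO conventional cells (adjusted p = 0.00620; log2 value 0.26 with T cell gene scaling) and was 0.29 higher in regulatory than in conventional KO cells. Eno3, the muscle type, stood at 21.6, 19.2 and 17.7 CPM in the WT and 23.3, 23.9 and 28.5 CPM in the KO replicates of conventional cells. Its regulatory values were 40.9, 38.9 and 47.8 CPM for WT and 71.0, 75.7 and 82.2 CPM for KO replicates. All 4 groups were separate, with KO above WT and regulatory above conventional. Eno3 rose by 0.37 in conventional KO cells (adjusted p = 0.0149) and by 0.84 in regulatory KO cells (SE 0.11, adjusted p = 0.00210), and regulatory cells were higher by 1.13 in WT and 1.60 in KO. The conventional call was lost without WT conventional or KO conventional replicate 3 (adjusted p up to 0.0703). The difference of the genotype effects on Eno3, 0.47, passed narrowly at adjusted p = 0.0451 and was lost when any 1 of 8 libraries was left out (up to 0.146). Eno2, the neuronal type, was at 2.12, 1.04 and 1.28 CPM in the WT and 0.887, 2.32 and 2.19 CPM in the KO replicates of conventional cells. WT regulatory replicates showed 4.66, 4.17 and 4.25 CPM, and KO regulatory replicates 5.72, 5.44 and 7.57 CPM. All regulatory libraries were above all conventional ones, by 1.55 (adjusted p = 0.00165) in WT and 1.80 (adjusted p = 0.000567) in KO, and the genotype differences of 0.28 and 0.52 did not pass.

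Bpgm encodes bisphosphoglycerate mutase, known from red cells, where its product lowers the oxygen affinity of haemoglobin. It was at 25.9, 25.2 and 28.2 CPM in the WT and 20.4, 22.6 and 21.1 CPM in the KO replicates of conventional cells. The regulatory WT replicates gave 138, 189 and 136 CPM and the KO replicates 173, 153 and 141 CPM. Every regulatory library was above every conventional one, and the genotypes overlapped among regulatory libraries. The difference between cell types was 2.54 (SE 0.13, adjusted p = 2.22e-08) in WT and 2.86 (SE 0.13, adjusted p = 1.87e-08) in KO, and the genotype differences of -0.31 and 0.0081 did not pass. Erythroid marker sums were 5270.0, 9571 and 5197 CPM in the WT and 7657, 5881 and 6537 CPM in the KO regulatory replicates. The highest erythroid sum and the highest Bpgm level fell in the same library in both groups, and the part of erythroid RNA in the Bpgm level was not tested.

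**Figure D3:**
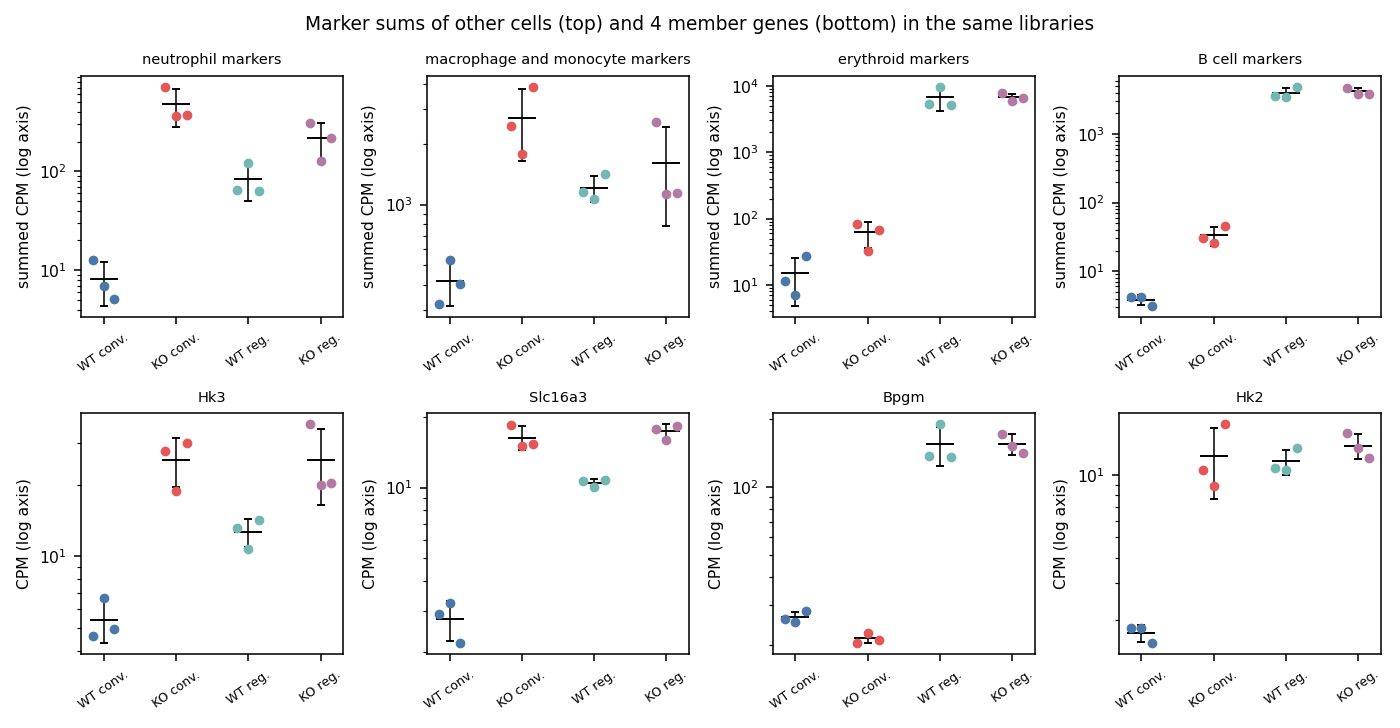
Top, summed CPM (log axes) of marker genes of neutrophils, macrophages and monocytes, erythroid cells and B cells; bottom, CPM (log axes) of Hk3, Slc16a3, Bpgm and Hk2; 1 point per library, with the mean and SD of 3. Erythroid sums reach 5197 to 9571 CPM in regulatory libraries, where Bpgm is at 136 to 189 CPM. Each marker sum shown is lowest in WT conventional libraries, where Hk3, Slc16a3 and Hk2, but not Bpgm, are lowest as well.

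Lactate dehydrogenase interconverts pyruvate and lactate, with Ldha encoding the form favoured in glycolytic cells and Ldhb that of oxidative tissue. Ldha stood at 491, 501 and 548 CPM in the WT and 384, 399 and 375 CPM in the KO replicates of conventional cells. Among regulatory libraries, WT replicates stood at 549, 509.7 and 450.2 CPM and KO replicates at 460.4, 504 and 562 CPM. The KO conventional libraries were below all 9 others, which overlapped. Ldha fell by 0.41 in conventional KO cells (SE 0.087, adjusted p = 0.00264; log2 value 0.18 with T cell gene scaling), the regulatory value was 0.017 (adjusted p = 0.927), and the effects differed by 0.43 (adjusted p = 0.0301). Leaving out any 1 of 7 libraries ended that call, at adjusted p up to 0.0791. Regulatory KO cells were 0.40 above conventional KO cells, and the WT difference was -0.029 (adjusted p = 0.772). Ldhb, at 26.0 ± 0.859 CPM (WT) and 18.2 ± 2.02 CPM (KO) in conventional cells (SD, n = 3), fell by 0.51 (adjusted p = 0.0151, or 0.0615 without KO replicate 3), and read 0.073 with T cell gene scaling. It was higher in regulatory cells by 0.45 in WT and 0.80 in KO, and the WT call was lost without WT conventional replicate 1 or WT regulatory replicate 1 or 2, at adjusted p up to 0.0762.

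Slc16a1 and Slc16a3 encode the monocarboxylate transporters MCT1 and MCT4, of which MCT4 is the lactate exporter of highly glycolytic cells. Slc16a3 was at 2.89, 3.23 and 2.18 CPM in the WT and 18.5, 15.1 and 15.3 CPM in the KO replicates of conventional cells. Its regulatory values were 10.6, 10.1 and 10.7 CPM for WT and 17.7, 15.9 and 18.3 CPM for KO replicates. WT conventional libraries were lowest, WT regulatory ones intermediate, and the KO groups overlapped above both. Slc16a3 rose by 2.56 in conventional KO cells (SE 0.15, adjusted p = 1.34e-06) and by 0.72 in regulatory KO cells (SE 0.13, adjusted p = 0.0108), and these rises differed by -1.83 (SE 0.19, adjusted p = 0.000246). Regulatory cells exceeded conventional ones by 1.92 in WT (adjusted p = 4.17e-07), and the KO difference of 0.085 did not pass. Slc16a1 did not pass between genotypes, at -0.27 and -0.087. It was higher in regulatory cells by 0.75 in WT and 0.93 in KO, with 37.0 ± 3.14 CPM in WT conventional and 62.1 ± 3.44 CPM in WT regulatory cells (SD, n = 3).

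Pyruvate enters mitochondria through the carrier formed by Mpc1 and Mpc2, and pyruvate dehydrogenase (Pdha1 and Pdhb encode its first subunit pair) turns it into acetyl-CoA unless pyruvate dehydrogenase kinases phosphorylate it. Pdk1 was at 454, 472 and 435 CPM in the WT and 364, 354 and 297 CPM in the KO replicates of conventional cells. WT regulatory replicates showed 145, 136 and 116 CPM, and KO regulatory replicates 91.0, 103 and 89.0 CPM. The 4 groups stood in that falling order with no overlap. Pdk1 was lower in regulatory cells, at -1.78 (SE 0.10, adjusted p = 4.35e-08) in WT and -1.84 (SE 0.10, adjusted p = 5.62e-08) in KO, and with T cell gene scaling at -1.15 and -1.26. It fell in KO cells by 0.42 (adjusted p = 0.00350) in conventional and 0.48 (adjusted p = 0.0144) in regulatory cells, and with T cell gene scaling these values turned to 0.16 and 0.056. The regulatory call was lost without WT regulatory replicate 2 (0.0523) or KO regulatory replicate 3 (0.0566), and with only the regulatory groups in the model (0.0557).

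Pdk2, a second kinase of the complex, went the other way, at 11.4 ± 0.384, 13.4 ± 0.850, 17.3 ± 1.32 and 18.8 ± 0.253 CPM in WT conventional, KO conventional, WT regulatory and KO regulatory cells (SD, n = 3). It was higher in regulatory cells by 0.61 in WT and 0.49 in KO. Its rise of 0.24 in KO conventional cells (adjusted p = 0.0343) was lost when any 1 of the WT conventional replicates or KO conventional replicate 1 or 2 was left out, at adjusted p up to 0.137. In KO conventional cells Pdha1, Pdhb and Mpc1 fell by 0.31, 0.27 and 0.34 (adjusted p = 0.00223, 0.00298 and 0.00262), and turned to 0.28, 0.32 and 0.24 with T cell gene scaling, while Mpc2 read -0.17 and did not pass. None of the 4 passed between genotypes in regulatory cells, with values from -0.17 to -0.077. Mpc2 was higher in regulatory cells of both genotypes (0.38 and 0.45), and Pdhb and Mpc1 in KO alone passed (0.26 and 0.25). Pdha1 passed in neither, at -0.14 and 0.0051.

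The ratio of 2 genes of one step within a library does not depend on scaling between libraries, and 10 such pairs were compared in the 4 two-group comparisons. With 3 against 3 libraries the smallest p of a two-sided exact permutation test is 0.1, so 0 of the 40 tests could pass or did pass, and the smallest adjusted p was 0.133. On the log2 scale, Hk2 to Hk1 went from -6.86 ± 0.104 in WT conventional to -3.86 ± 0.547 in KO conventional libraries (SD, n = 3), a difference of 2.995, beside 0.19 between regulatory genotypes (exact p = 0.1 and 0.5). Slc16a3 to Slc16a1 differed by 2.84 and 0.83 between genotypes, without overlap in either cell type. Pdk2 to Pdk1 differed by 2.39 and 2.33 between cell types and by 0.66 and 0.60 between genotypes, with the 4 groups apart. Eno3 to Eno1 likewise separated all groups, at 0.70 and 0.84 between genotypes and 1.16 and 1.31 between cell types. Pfkfb4 to Pfkfb3 went in opposite directions between genotypes, 1.03 in conventional and -0.39 in regulatory cells, the latter with overlap (exact p = 0.2). Ldhb to Ldha differed by -0.11 and -0.18 between genotypes, where the groups overlapped, and by 0.47 and 0.40 between cell types, where they did not.

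**Figure D4:**
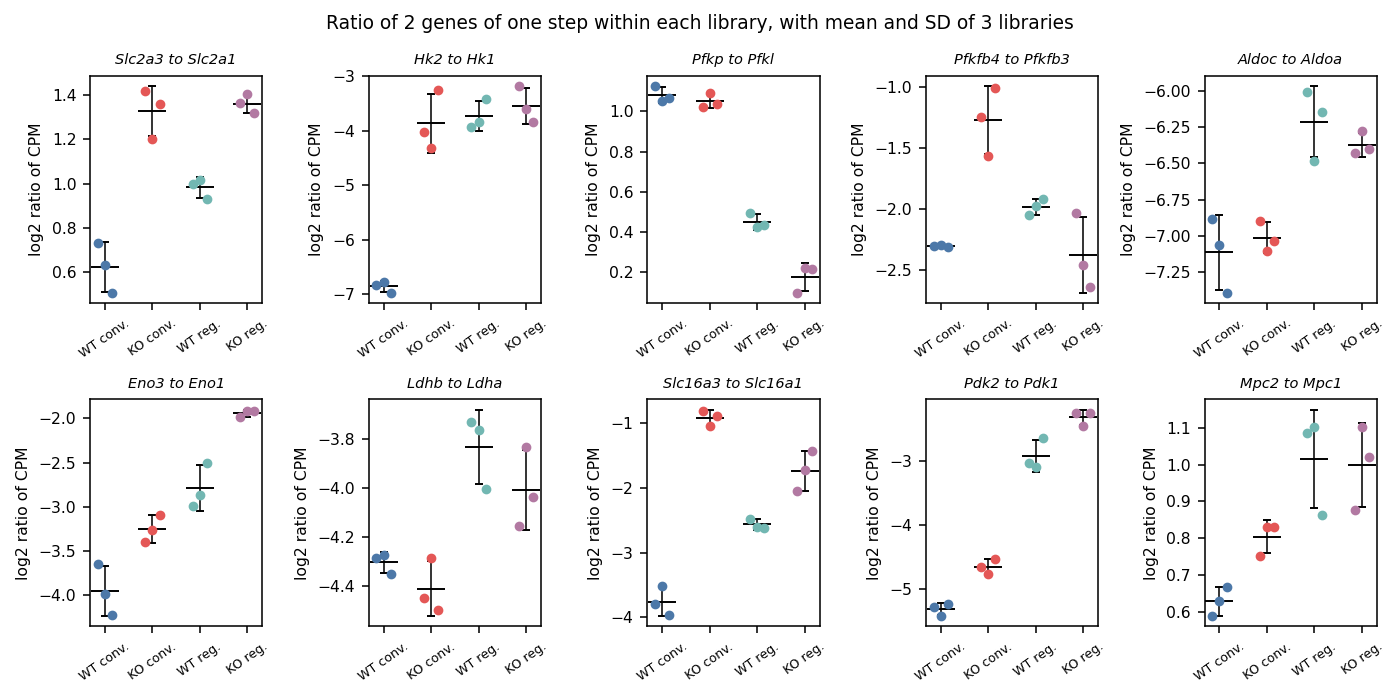
Log2 ratio of CPM for 10 pairs of genes of one step in each of the 12 libraries (points), with bars for each group's mean and SD over 3; axes do not start at 0. Hk2 to Hk1 averages -6.86 in WT conventional libraries and -3.86 to -3.54 in the other groups, and Pdk2 to Pdk1 rises from -5.32 in WT conventional to -2.32 in KO regulatory libraries.

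Other genes of the pathway and its regulators were counted from lists chosen by function. Over all genes, 48.7% passed in KO conventional cells (23.3% higher, 25.4% lower) and 7.83% in KO regulatory cells. Counts of the 4 lists below are with TMM scaling. With T cell gene scaling, 0 of their genes were lower in either cell type, where 60 of 15922 genes were lower in KO conventional and 41 in KO regulatory cells. In the order below, 6, 4, 9 and 6 were then higher in KO conventional cells, where 7006 of 15922 genes were higher. The numbers in KO regulatory cells were 4, 3, 11 and 4, where 5116 of all genes were higher. Of 11 further glycolysis genes with enough reads to test (Adpgk, Slc2a6, Ldhd and others), 4 rose and 3 fell in KO conventional cells (63.6% passed) and 2 rose and 1 fell in KO regulatory cells (27.3%). Slc2a6, a sugar transporter, went from 0.341 ± 0.177 CPM (31 reads in all) in WT to 11.3 ± 2.26 CPM in KO conventional cells, and read 8.14 ± 1.33 CPM and 14.5 ± 2.58 CPM in WT and KO regulatory cells (SD, n = 3), the same order of group means as Slc16a3. Adpgk, a sugar kinase that uses ADP, fell by 0.78 in conventional and by 0.28 in regulatory KO cells (adjusted p = 1.79e-05 and 0.0464). Of 9 further genes of the pyruvate dehydrogenase system, 1 rose and 2 fell in KO conventional cells (33.3%) and 0 passed in KO regulatory cells, with the phosphatase gene Pdp1 at -0.54 and the kinase gene Pdk3 at 0.25 in the former. Of 20 regulators of glycolysis (Hif1a, Myc, Mtor, Txnip and others), 4 rose and 9 fell in KO conventional cells (65%) and 0 rose and 1 fell in KO regulatory cells (5%). Arrdc4, an arrestin of glucose uptake related to Txnip, rose by 2.32 in KO conventional cells, from 3.25 ± 0.453 to 16.3 ± 2.93 CPM (SD, n = 3), and Stk11, the kinase LKB1, read -0.27. Of 15 other hypoxia response genes, 2 rose and 5 fell in KO conventional cells (46.7%) and 1 rose and 0 fell in KO regulatory cells (6.67%), both near the share of all genes. The collagen prolyl hydroxylase gene P4ha1 was at -0.61 and the demethylase gene Kdm3a at -0.24 in KO conventional cells. The medians of these 4 lists in KO conventional cells were 0.12, -0.11, -0.097 and -0.085, beside -0.049 for all genes.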

How the data were processed

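The 12 libraries (4 groups of 3) were made from polyadenylated RNA with a stranded kit, per the labels' protocols. The submitters' processing notes name STAR and the GRCm38 build, and the authors deposited whole-number read counts per gene for the reverse strand. The annotation release is not given in the sources used here. The 4 tally rows of unassigned reads were left out, and Ensembl identifiers were paired with symbols for 45143 of 45706 genes.

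The filterByExpr function, at its minimum count of 10 and total of 15, left 15922 genes. One edgeR 4.0.16 quasi-likelihood model (R 4.3.3, TMM scaling, 12 libraries, no covariates) gave KO against WT in each cell type, regulatory against conventional cells in each genotype, and the difference of the KO effects. P-values were adjusted by Benjamini and Hochberg over all tested genes, and a standard error is the log2 fold change divided by the square root of F. The common biological coefficient of variation was 0.155. The model was also run on simulated counts in which a small set of genes was changed in KO conventional libraries alone. That run cannot test the scaling in data where a large share of genes differs. Isozyme ratios were compared with exact permutation tests. Alternatives used DESeq2 1.42.0, limma 3.58.1, other scalings and filters, a replicate block, fewer samples and a term for Xist. That term and T cell gene scaling of the other lists were chosen after seeing the data. Levels per kilobase used exon lengths of GENCODE M21.

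The members and gene lists were chosen with earlier results of these data known. Values by library are given for members past the threshold with an absolute log2 fold change of at least 1, members whose KO effects differed between cell types, and the 5 members of highest mean CPM. From each other list, genes among the top 3 by p-value were eligible to be named. Counting error is covered only as far as the spread between libraries shows it.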

Additional observations from a re-analysis of the deposited data

Results flagged for a closer look

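For 8 of the 32 genes (25% of members, where 21.3% of all genes passed), the effect of the KO differed between regulatory and conventional T cells by edgeR's quasi-likelihood test of the difference. The log2 effect in regulatory cells minus that in conventional cells was -2.58 for Hk2, -1.83 for Slc16a3, -1.23 for Hk3 and -0.77 for Pfkfb4. The same difference was 0.66 for Pfkfb3, 0.47 for Eno3, 0.43 for Ldha and 0.41 for Pkm. Scaled to the 6 T cell genes, Hk2 (-2.66, adjusted p = 0.00689) and Slc16a3 (-1.89, adjusted p = 0.00741) still passed and the other 6 did not. Of 15922 genes, 921 then passed below 0 and 30 above 0. The differences of Hk2, Slc16a3 and Pfkfb3 passed in each of the 12 fits that left out 1 library. Summed neutrophil markers went from 8.21 ± 3.87 to 479.9 ± 202 CPM in conventional cells and from 83.3 ± 32.9 to 218 ± 91.1 CPM in regulatory cells (SD, n = 3). Mean sums of macrophage and monocyte markers went from 417 to 2700 and from 1211 to 1611 CPM in the same order. Those of NK cells went from 69.5 to 426 and from 61.8 to 91.7 CPM, and those of B cells from 3.84 to 34.0 and from 3959 to 4156 CPM. Among the 12 proliferation genes, the difference of KO effects passed below 0 for 8 and above 0 for 1, at a median of -0.97. With T cell gene scaling it passed below 0 for 2 and above 0 for 0 of them. The part of any of these cells, or of proliferation, in the differences of the 8 members was not tested.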

How the results depend on the processing

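The number of members called, 19 in KO conventional, 5 in KO regulatory, 24 between cell types in WT, 26 in KO and 8 for the difference of KO effects, stayed within 1.5 times under the other scalings, filters, tools and sample sets tried, apart from these. Scaling to 6 T cell genes called 18 members in KO regulatory cells and 2 for the difference, DESeq2 called 13 for the difference, and fitting only the groups compared called 3 in KO regulatory cells. The counts over all genes moved as well. In KO regulatory cells, T cell gene scaling called 5116 of 15922 genes higher and 41 lower. Fitting only the groups compared called 228 of 15046 higher and 85 lower. For the difference, T cell gene scaling called 30 higher and 921 lower, and DESeq2 1773 and 2279. Leaving out 1 library at a time called 15 to 17, 3 to 6, 22 to 27, 25 to 27 and 4 to 9 members in the same order. With the replicate block, 19, 4, 24, 26 and 7 members were called. The replicate numbers are not stated to pair samples, and deviations of same-numbered libraries correlated at -0.52 to 0.18. T cell gene scaling turned 22 members from below to above 0 in KO conventional cells, 12 in KO regulatory cells, and, for regulatory against conventional cells, 8 with WT and 3 with KO genotype. Among those in KO conventional cells were Hk1 0.37, Gpi1 0.57, Pfkl 0.58, Pfkm 0.33, Pfkp 0.55, Aldoa 0.38, Gapdh 0.56, Pgk1 0.46, Eno1 0.26, Pkm 0.29, Ldha 0.18, Ldhb 0.073, Pdk1 0.16, Pdha1 0.28, Pdhb 0.32 and Mpc1 0.24, and in KO regulatory cells Eno1 0.53 and Pdk1 0.056. Between cell types they were Hk1 0.25, Pfkm 0.28, Pfkp 0.10, Pfkfb3 0.39, Eno1 0.59, Ldha 0.60, Pdha1 0.49 and Mpc1 0.63 in WT, and Hk1 0.47 and Pfkm 0.25 among those in KO. The Hk3 call in KO regulatory cells did not pass with limma (adjusted p = 0.0560), the replicate block (0.0523) or without the pair of libraries that held Xist together with Y-linked reads (0.0655). Isozyme ratios passed under no setting, since the exact permutation test on 3 against 3 libraries cannot go below p = 0.1. Counting error weighs most on Hk2, Eno2, Aldoc and Slc16a3, the members of lowest level per exon length in WT conventional libraries.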

Other observations

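The branches that leave glycolysis before and after pyruvate had other counts than the members. Of 7 pentose phosphate genes, which make NADPH and ribose from glucose 6-phosphate, 4 rose and 0 fell in KO conventional cells, where 23.3% of all genes rose, and 5 were higher and 0 lower in WT regulatory than in WT conventional cells, where 39.1% of all genes were higher and 33.3% lower. G6pdx, the first enzyme of that branch, rose by 0.39 in KO conventional cells (edgeR, adjusted p = 0.00422). Of 16 citric acid cycle genes, 1 rose and 12 fell in KO conventional cells, where 25.4% of all genes fell. With T cell gene scaling 4 were higher and 0 lower there, where 7006 of 15922 genes were higher and 60 lower. The median of these 16 genes was then 0.40, beside 0.53 for all genes. In WT regulatory cells 12 of them were higher and 3 lower with TMM scaling. With T cell gene scaling 15 were higher and 0 lower, where 9127 of all genes were higher and 966 lower. The median of the citric acid cycle list in KO conventional cells was -0.19 with TMM scaling, beside -0.049 for all genes and 0.21 for the pentose phosphate list. With TMM scaling, neither list had a member past the threshold between genotypes in regulatory cells. With T cell gene scaling, 6 pentose phosphate and 10 citric acid cycle genes were higher and 0 lower there, where 5116 of 15922 genes were higher and 41 lower. That scaling also put all 7 pentose phosphate genes higher in KO conventional cells, where 7006 of all genes were higher.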
